A study of Drosophila melanogaster with 6 samples.

Results

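The genes that encode the proteasome, the protease that degrades ubiquitin-tagged proteins, were followed in RNA-seq libraries of infected adult male Drosophila melanogaster. Members were all genes of the dm6 annotation whose symbols begin with Prosalpha, Prosbeta, Rpn or Rpt and a number. The rule found 48 of the 17558 gene identifiers in the count table, and all 48 passed the filter on low counts, with no library below 113 raw counts for any of them. They divided into 32 ubiquitous genes, of which 14 encode the core particle and 18 the regulatory cap, and 16 paralogous copies, recognised by the letter R or T after the subunit number. The rule uses symbols and no measured value.

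The study compared 3 libraries of CR11538-overexpressing flies (Gal80ts; Tub> CR11538) with 3 libraries of control flies (Gal80ts; Tub-Gal4/P{CaryP}attP40). All flies were adult males of a few days of age, all had been injected in the thorax with the Gram-positive bacterium M. luteus, and all were collected 12 h later. Both genotypes carried the Gal4 driver and the temperature-sensitive repressor Gal80ts, so only the long non-coding RNA transgene set them apart by label. The paper's methods describe culture of the transgenic cross in the cold and a move to a warm incubator, which switched the transgene on. How the control flies were kept is not spelled out separately there. The tubulin promoter is active in nearly all tissues, the transgene was not limited to immune tissue, and neither an uninfected library nor a second transgenic line is among the 6 libraries. The methods describe replicates as independent, but for the study's experiments as a whole. How many flies entered a library, and whether the sequenced replicates came from separate cultures, is not given by the labels, and p-values cover no more than the scatter among these libraries.

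The proteasome consists of a barrel-shaped core and a cap that docks on its end. The barrel is built from outer alpha rings, whose subunits form the gate, and inner beta rings, which hold the protease sites. The cap has a base, with a ring of Rpt ATPases that unfold substrates and the ubiquitin receptors Rpn1, Rpn10 and Rpn13, and a lid, which carries the deubiquitinase Rpn11. In Drosophila several subunits have a further gene copy that is active mainly in the testis, where a remodelled proteasome serves sperm formation. When proteasome function falls short, flies and mammals raise the transcription of most ubiquitous subunit genes together, through Cnc in the fly.

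The libraries held 17040432 to 19652500 counts, of which proteasome members took 0.395 to 0.456%. lncRNA-CR11538 itself had 5, 2 and 5 raw counts in the control libraries and 2291, 3358 and 3312 in the CR11538-overexpressing libraries (log2 fold change 9.47 with a standard error, SE, of 0.25, adjusted p = 1.27e-07). Replicates of 1 genotype differed beyond sampling noise in every pair (chi-square per gene 6.67 to 33.9). The CR11538-overexpressing libraries were spread along the second principal component, at 23.8, -5.99 and -21.4 for replicates 1, 2 and 3. That component held 11.5% of the variance against 68.8% for the first. CR11538-overexpressing replicate 1 was the lowest of its group for 22 of the 32 ubiquitous members and for 31 of all 48. No such share was computed over all genes.

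Most ubiquitous proteasome genes differed little between the CR11538-overexpressing and the control flies. Of the 32 ubiquitous members, 27 did not pass the test, 3 were lower and 2 were higher, and of the 16 copies 5 were higher and none was lower. In total 7 members were higher and 3 lower, where the same test called 29.2% of the 13159 genes tested, 15.0% as higher and 14.2% as lower. More abundant genes, with mean normalized counts of 1000 or above as in most ubiquitous members, were called more often, at 44.1% of 3493 genes (22.6% higher, 21.5% lower). A call is a Benjamini-Hochberg adjusted p under 0.05 from edgeR's quasi-likelihood test over all genes tested, at any fold change. No member changed by more than 2-fold, whereas 4.66% of all tested genes were called with a change of more than 2-fold. DESeq2 called 6 members higher and 3 lower, beside 23.7% of the genes it tested (12.9% higher, 10.8% lower).

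The 3 lower genes all encode core subunits and the 2 higher ubiquitous genes both encode cap subunits. No core gene was higher and no cap gene lower under edgeR or DESeq2, and the 6 ubiquitous genes at an unadjusted p under 0.05 were these 5 and the cap gene Rpn2, which was higher, beside 40.9% of all tested genes. The median log2 fold change was -0.01 for the 14 core genes, 0.05 for the 18 cap genes and 0.18 for the 16 copies, beside -0.01 for all genes tested. For the 27 ubiquitous genes that did not pass, the log2 fold changes ran from -0.08 to 0.18, and their 95% intervals lay between -0.24 and 0.32, which is 0.844 to 1.25-fold. The libraries of the genotypes did not overlap for 10 of the 32 ubiquitous genes (7 higher, 3 lower), and for 8 of the 16 copies, all higher. Among all tested genes 45.2% did not overlap, 21.8% with the CR11538-overexpressing libraries higher and 23.3% with them lower. In whole flies, fewer cells of a type and less RNA per cell cannot be told apart.

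**Figure D1:**
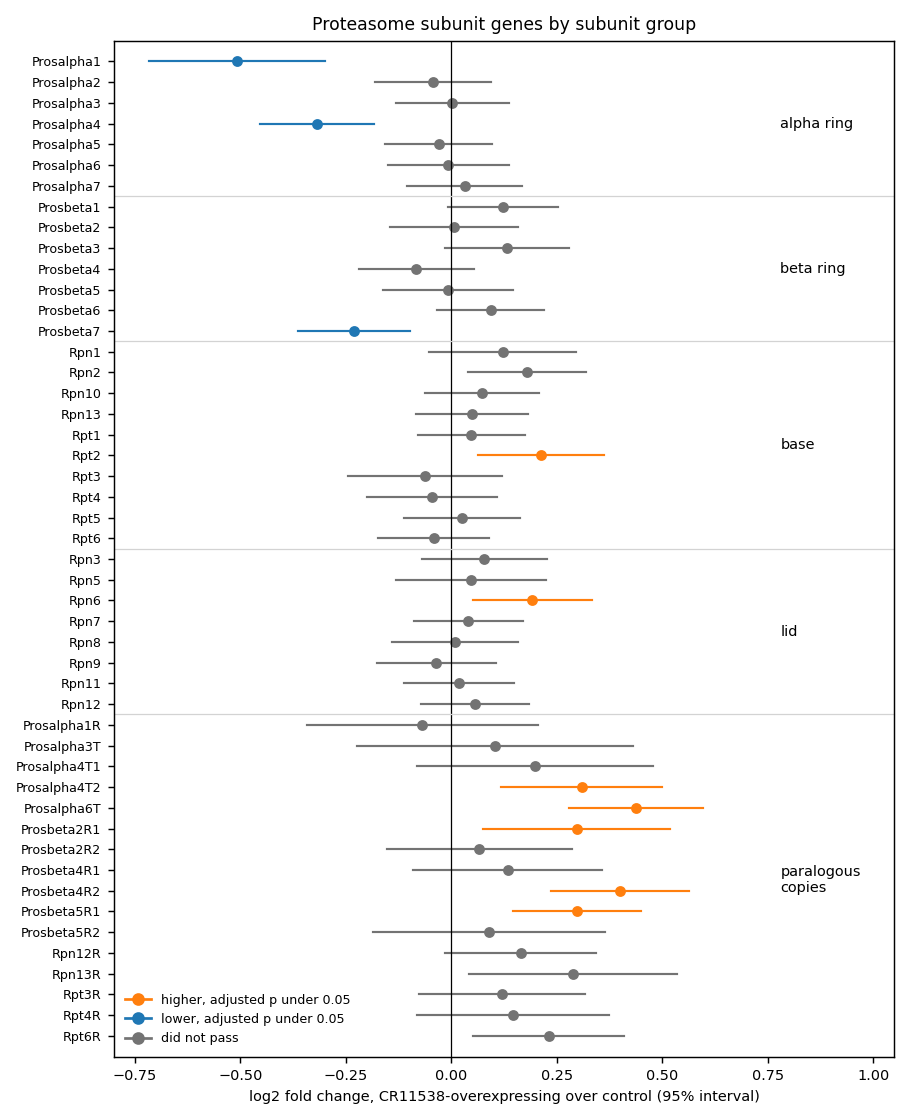
Log2 fold change of each of the 48 proteasome genes, CR11538-overexpressing over control flies (points), with 95% intervals from edgeR (bars), ordered by subunit group. Prosalpha1, Prosalpha4 and Prosbeta7 lie below 0, Rpt2, Rpn6 and 5 copies lie above it, and the other 38 genes did not pass the test.

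The alpha ring held the 2 largest decreases. Prosalpha4, an alpha ring subunit gene on the X chromosome (dm6, 16276270 to 16277587, plus strand), had 2967, 3102 and 3008 normalized counts in the control libraries and 2381, 2362 and 2535 in the CR11538-overexpressing libraries. Every CR11538-overexpressing library was below every control library, with a log2 fold change of -0.32 (SE 0.06, adjusted p = 0.00446). Normalized counts here are counts scaled by TMM to a common library size. The call held under all 12 alternative settings, over which the adjusted p ran from 0.000751 to 0.0243.

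Prosalpha1 had the largest change among the 48 members. Its normalized counts were 279.8, 308 and 279 in the control libraries and 204, 201 and 205 in the CR11538-overexpressing libraries, again without overlap. The log2 fold change was -0.51 (SE 0.09, adjusted p = 0.00381), and the adjusted p stayed between 0.00315 and 0.0220 over the 12 alternatives. The gene lies on 2R from 7827303 to 7828678 on the minus strand, and its copy Prosalpha1R follows 1734 bp further on, from 7830413 to 7831771 on the same strand. Both carry coding exons of the same 3 lengths, 479, 177 and 76 bp. Reads that match both genes may have been dropped or divided between them. How the counting treated such reads is not given in the sources used here, so the levels of this pair are uncertain, and the part of shared reads in the difference was not tested.

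The low level counted for Prosalpha1, which is uncertain for the reason just given, set it apart from the other subunits. Per kb of exon it reached 298 normalized counts in the control flies, 2.74-fold under the next lowest ubiquitous gene, whereas the other 31 ubiquitous genes lay within 3.81-fold of each other. Prosalpha1R had 164, 186 and 149 normalized counts in the control and 151, 166 and 159 in the CR11538-overexpressing libraries. These overlapped, and its log2 fold change was -0.07 (SE 0.12, adjusted p = 0.714).

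The other 5 alpha ring genes had log2 fold changes between -0.04 and 0.03, with 95% intervals within -0.18 and 0.17. Prosalpha2, the most abundant member per kb in the control flies, had 2869.6, 2969 and 2768 normalized counts in the control and 2677, 2816 and 2859.5 in the CR11538-overexpressing libraries (log2 fold change -0.04, SE 0.06, adjusted p = 0.639). The groups overlapped for all 5, which are Prosalpha2, Prosalpha3, Prosalpha5, Prosalpha6 and Prosalpha7.

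In the beta ring, only Prosbeta7 passed the test. Prosbeta7, a subunit without a protease site of its own, lies on 3R from 5357012 to 5358364 (minus strand). It had 3544, 3579 and 3674 normalized counts in the control and 2971, 3151 and 3084 in the CR11538-overexpressing libraries. The groups did not overlap, and the log2 fold change was -0.23 (SE 0.06, adjusted p = 0.0172). The call was lost by a small margin when any 1 control library was left out, with adjusted p = 0.0549, 0.0525 and 0.0589 without control replicates 1, 2 and 3.

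None of the 3 catalytic beta subunits passed the test. Prosbeta1, which cleaves after acidic residues, had 2509.8, 2409 and 2559.8 normalized counts in the control and 2738, 2743 and 2658 in the CR11538-overexpressing libraries. Its groups did not overlap, yet it did not pass (log2 fold change 0.12, SE 0.06, adjusted p = 0.146). Prosbeta2, the trypsin-like subunit, and Prosbeta5, the chymotrypsin-like subunit, had log2 fold changes of 0.01 and -0.01, with adjusted p = 0.950 and 0.942 and overlapping groups.

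Of the structural beta subunits, Prosbeta3 had 1924, 1969.9 and 1811 normalized counts in the control and 1956, 2159 and 2136 in the CR11538-overexpressing libraries (log2 fold change 0.13, SE 0.07, adjusted p = 0.164). The lowest CR11538-overexpressing library lay below the highest control library. Prosbeta4 and Prosbeta6 had log2 fold changes of -0.08 and 0.09 (adjusted p = 0.343 and 0.252), and for Prosbeta6 alone of these 3 the groups did not overlap.

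**Figure D2:**
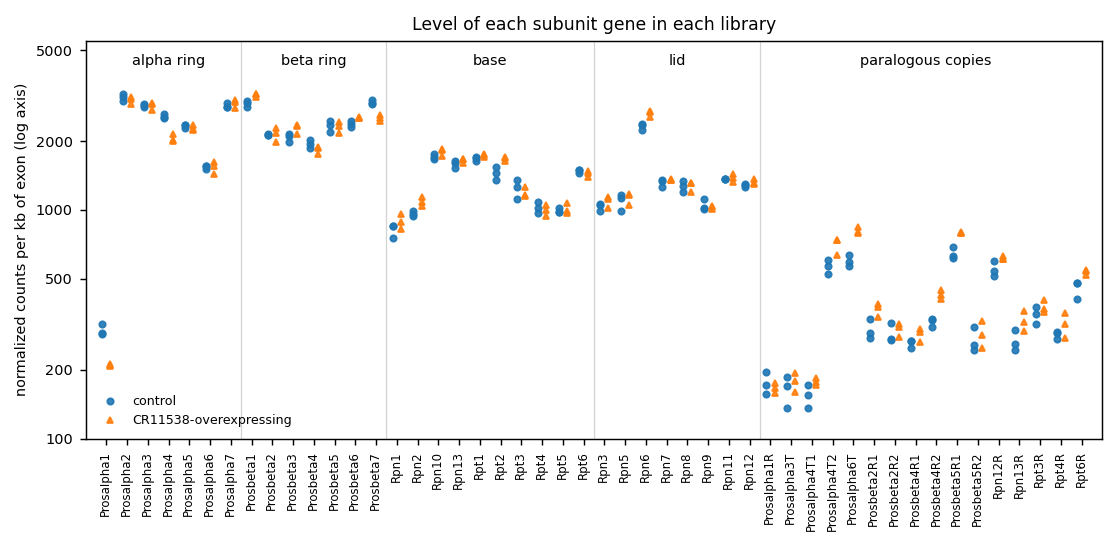
Normalized counts per kb of exon (log axis) of each proteasome gene in each of the 3 control libraries (circles) and 3 CR11538-overexpressing libraries (triangles), by subunit group. Core genes other than Prosalpha1 lie above most cap genes, and copies reach at most 812 (group mean). The circles and triangles separate for 18 of the 48 genes, where the genotypes did not overlap for 45.2% of all tested genes. The triangles are lower for Prosalpha1, Prosalpha4 and Prosbeta7 and higher for the other 15.

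In the base of the cap, Rpt2 was higher. Rpt2, the ATPase whose yeast counterpart acts on the gate of the core, lies on 3R from 23929873 to 23931558 (minus strand). It had 2514, 2364 and 2198 normalized counts in the control and 2675, 2742 and 2780.1 in the CR11538-overexpressing libraries. The groups did not overlap and the log2 fold change was 0.21 (SE 0.07, adjusted p = 0.0389). The call was lost in 6 of the 12 alternatives, among them leaving out CR11538-overexpressing replicate 2 or 3 or control replicate 2 or 3, and the adjusted p ran up to 0.123. The gene shares 116 bp of exon with CG31142 on the opposite strand, and whether the counting used strand is not given.

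Rpn2, a large scaffold subunit that holds the ubiquitin receptor Rpn13, came next. It had 3276, 3361 and 3216 normalized counts in the control and 3558, 3898 and 3696 in the CR11538-overexpressing libraries. These did not overlap, but the gene missed the threshold (log2 fold change 0.18, SE 0.06, adjusted p = 0.0577) and passed it in 3 of the 12 alternatives. Rpn1, which receives ubiquitin-carrying shuttle proteins, had 2593, 2586 and 2284 normalized counts in the control and 2515, 2909 and 2695 in the CR11538-overexpressing libraries, with overlap (log2 fold change 0.12, SE 0.08, adjusted p = 0.276).

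The remaining ATPases stayed close to the controls. Rpt1 and Rpt5 had log2 fold changes of 0.05 and 0.02, and the X-linked Rpt3, Rpt4 and Rpt6 had -0.06, -0.05 and -0.04, none of which passed (adjusted p = 0.570, 0.800, 0.606, 0.653 and 0.631). Both ubiquitin receptors Rpn10 and Rpn13 lay slightly above 0, at 0.07 and 0.05 (adjusted p = 0.397 and 0.576).

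In the lid, Rpn6 was higher. Rpn6, which clamps the lid to the core in yeast and human proteasomes, lies on 2R from 14750166 to 14752910 (minus strand) and had the highest level per kb of any cap gene. Its normalized counts were 4556, 4361 and 4627 in the control and 4956, 5213 and 5295 in the CR11538-overexpressing libraries. The groups did not overlap, with a log2 fold change of 0.19 (SE 0.06, adjusted p = 0.0462). The call was lost in 8 of 12 alternatives, with an adjusted p of up to 0.155. It was kept when CR11538-overexpressing replicate 1 was left out and lost when any other single library was.

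The other 7 lid genes did not pass. Rpn3 had 1939, 1819 and 1932 normalized counts in the control and 1865, 2095 and 2046 in the CR11538-overexpressing libraries (log2 fold change 0.08, SE 0.07, adjusted p = 0.413). Rpn12, one of the last subunits to join the lid in yeast, had 1294, 1278 and 1249.8 against 1312, 1361 and 1299 normalized counts, with no overlap but a log2 fold change of only 0.06 (SE 0.06, adjusted p = 0.498). Rpn11, the deubiquitinase, and its partner Rpn8 had log2 fold changes of 0.02 and 0.01 (adjusted p = 0.848 and 0.937). Rpn5, Rpn7 and Rpn9 had 0.05, 0.04 and -0.04 (adjusted p = 0.703, 0.643 and 0.709).

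The ubiquitous genes on the X chromosome all lay below 0. They are Prosalpha4, Rpt3, Rpt4 and Rpt6, of which Prosalpha4 passed the test, and their median log2 fold change was -0.05. Tested genes on the X chromosome had the same median of -0.05 (n = 2009), beside 0.00 for those on the large autosome arms (n = 10797). Of the 28 ubiquitous genes on autosomes, 20 lay above 0 and 8 below.

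In each library, the levels of core and cap genes were also set against each other per kb of exon. The mean core gene exceeded the mean cap gene in every library, and the ratio of their summed levels was 1.36 ± 0.00520 (SD, n = 3) in the control and 1.28 ± 0.0204 (SD, n = 3) in the CR11538-overexpressing flies. The control libraries gave 1.36, 1.37 and 1.37, and the CR11538-overexpressing libraries 1.28, 1.26 and 1.30, without overlap. Summed core levels overlapped between the genotypes, at 31908 to 32650.4 against 30768 to 32500.3 normalized counts per kb. Summed cap levels were 23295 to 24019 against 24017 to 25255. Without the 3 core genes that were lower, a choice made after their values were seen, the ratio was 1.12, 1.12 and 1.12 against 1.09, 1.07 and 1.11.

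The order of the levels was similar in both genotypes, with 17 of the 48 members at exactly the same rank and the others moved by at most 6 places. In the control flies the median level was 2355 normalized counts per kb for core genes, 1276 for cap genes and 294 for copies. Prosalpha2 stood highest at 3118, followed by Prosbeta7 at 2962, Prosbeta1 at 2926, Prosalpha7 at 2861 and Prosalpha3 at 2859. In the CR11538-overexpressing flies Prosbeta1 stood highest at 3184, while Prosbeta7 was at 2526 and Prosalpha4 had moved from 2573 to 2063. Rpn6 was the only cap gene among the 10 highest in the control flies. Rpn1, Rpn2 and Rpt5 were the lowest ubiquitous genes after Prosalpha1, whose level is uncertain. Over the 48 members the levels per kb in the genotypes had a Spearman's rho of 0.990. This describes members that share the same libraries and is no test.

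**Figure D3:**
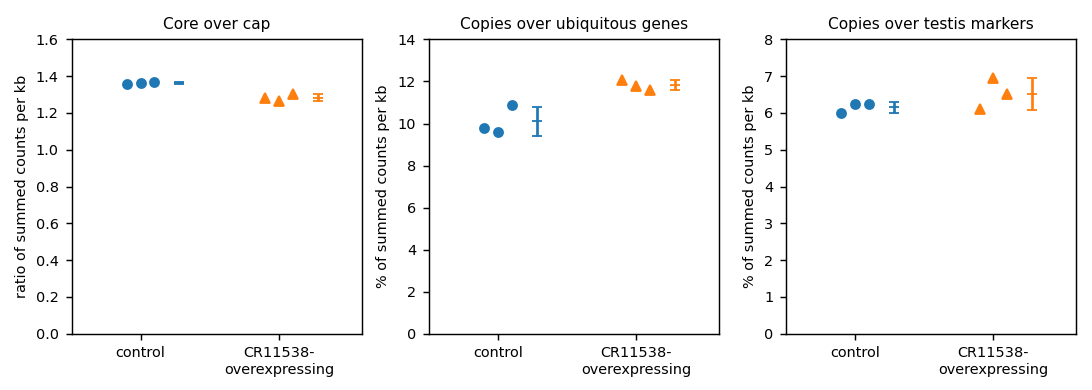
Ratios of summed normalized counts per kb in each library of each genotype (points), with mean and SD (bars, n = 3): core over cap genes, copies as a percent of ubiquitous genes, and copies as a percent of testis markers. The groups separate in the first and second panels (1.36 against 1.28, and 10.1 against 11.8%) and overlap in the third.

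Several copies, core subunit genes in each case, were higher in the CR11538-overexpressing flies. Of the 16 copies, 15 had a log2 fold change above 0, where 49.3% of all tested genes did, and 5 passed the test as higher, beside 15.0% of all tested genes. All 5 encode core subunits, out of 11 core copies with a median log2 fold change of 0.20, and the 5 cap copies had a median of 0.16 with none past the test. At an unadjusted p under 0.05 edgeR placed 7 copies, 2 of them cap copies, and all were higher, where 40.9% of all tested genes reached that level, 20.4% as higher, while DESeq2 called 4 copies as higher, none as lower and no cap copy. The difference between copies and ubiquitous genes was not tested, because members are not replicates of a condition.

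Prosalpha6T, the testis form of an alpha ring subunit that male flies need for fertility, showed the largest increase. It had 606, 579 and 649.6 normalized counts in the control and 810.5, 857 and 817 in the CR11538-overexpressing libraries, without overlap. The gene lies on 2L from 13232039 to 13233058 (plus strand), and its log2 fold change was 0.44 (SE 0.07, adjusted p = 0.00206). The call held in all 12 alternatives, with an adjusted p of at most 0.0136. For its ubiquitous counterpart Prosalpha6 the log2 fold change was -0.01, with adjusted p = 0.946.

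Prosbeta4R2, a copy of a structural beta subunit, had 544, 506 and 549.8 normalized counts in the control and 738, 673 and 699 in the CR11538-overexpressing libraries. The log2 fold change was 0.40 (SE 0.07, adjusted p = 0.00380), the groups did not overlap, and the call held in all 12 alternatives. The gene lies on 2L from 2655394 to 2657102 (plus strand) and shares 69 bp of exon with the odorant receptor gene Or23a on the same strand. Its neighbour Prosbeta4R1, from 2653046 to 2653926, had 207, 222 and 222 against 219, 251 and 244 normalized counts, with overlap (log2 fold change 0.13, SE 0.10, adjusted p = 0.354).

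Prosbeta5R1, a copy of the chymotrypsin-like subunit on 2R (23308654 to 23309816, minus strand), had 696, 684 and 766 normalized counts in the control and 887, 874 and 877 in the CR11538-overexpressing libraries. The log2 fold change was 0.30 (SE 0.07, adjusted p = 0.0102), and the call was lost only without control replicate 1 (adjusted p = 0.0519). Prosalpha4T2, on 2R from 24500780 to 24502277 (minus strand), had 716, 661 and 760.2 against 927, 926 and 794 normalized counts. The groups did not overlap (log2 fold change 0.31, SE 0.09, adjusted p = 0.0230), and the call was lost without CR11538-overexpressing replicate 2, control replicate 1 or control replicate 2, where the adjusted p reached 0.0944. Prosbeta2R1, a copy of the trypsin-like subunit on the X chromosome (5808954 to 5810158, plus strand), had 312, 298 and 359 against 368, 417 and 404 normalized counts. It passed narrowly (log2 fold change 0.30, SE 0.10, adjusted p = 0.0482) and lost its call in 7 of 12 alternatives, including DESeq2 (adjusted p = 0.0824) and 4 of the 6 fits that left out a library.

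Among the copies that did not pass, Rpt6R and Rpn13R came nearest. Rpt6R, an ATPase copy, had 692, 590.2 and 696 normalized counts in the control and 751, 789 and 779.5 in the CR11538-overexpressing libraries (log2 fold change 0.23, SE 0.08, adjusted p = 0.0566). Rpn13R had 266, 282 and 325 against 392, 323 and 351 normalized counts, with a slight overlap (log2 fold change 0.29, SE 0.11, adjusted p = 0.0772). Rpn12R, the most abundant cap copy per kb, had 483, 507 and 563 against 593, 574 and 571 normalized counts, without overlap but also without a call (log2 fold change 0.16, SE 0.08, adjusted p = 0.152).

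Prosalpha3T and Prosalpha4T1, with the lowest mean normalized counts among the copies, had the widest errors. Prosbeta5R2 followed with an SE of 0.12 at higher counts. Prosalpha3T had 166, 151 and 121 normalized counts in the control and 142, 158 and 171 in the CR11538-overexpressing libraries (log2 fold change 0.10, SE 0.15, adjusted p = 0.639). Prosalpha4T1 had 138, 122 and 152 against 153, 163 and 157 normalized counts, with groups that were barely apart (log2 fold change 0.20, SE 0.13, adjusted p = 0.268). Prosbeta2R2, Prosbeta5R2, Rpt3R and Rpt4R had overlapping groups and log2 fold changes of 0.07, 0.09, 0.12 and 0.15 (adjusted p = 0.652, 0.631, 0.342 and 0.315).

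Each copy was also expressed as a percent of its ubiquitous counterpart, per kb of exon. In the control flies these shares ran from 5.75% for Prosalpha3T to 43.0% for Rpn12R, apart from the uncertain pair Prosalpha1R and Prosalpha1, at 58.4%. The mean share was higher in the CR11538-overexpressing flies for all 16 copies, and the libraries did not overlap for 9 of them. No background share was computed for such ratios. Of single genes, which is a different measure, 45.2% did not overlap, 21.8% as higher. The shares also repeat the single-gene results and are not separate, because the copies of Prosalpha4, Prosbeta2, Prosbeta4 and Prosbeta5 share a denominator.

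Prosalpha6T was at 38.8 ± 2.94% (SD, n = 3) in the control and 52.9 ± 3.04% (SD, n = 3) in the CR11538-overexpressing flies, relative to Prosalpha6, with every CR11538-overexpressing library above every control library. Prosalpha4T2 was at 22.1 ± 1.92% and 34.2 ± 4.19% of Prosalpha4, a share in which the increase of the copy and the decrease of the ubiquitous gene both enter. Prosalpha1R was at 58.4 ± 3.57% and 79.4 ± 4.50% of Prosalpha1, where only Prosalpha1 passed the test. Prosbeta5R1 was at 27.9 ± 3.20% and 34.4 ± 2.11% of Prosbeta5, and Prosbeta4R2 at 16.7 ± 1.32% and 23.3 ± 2.01% of Prosbeta4, both without overlap. These shares were not tested by themselves.

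**Figure D4:**
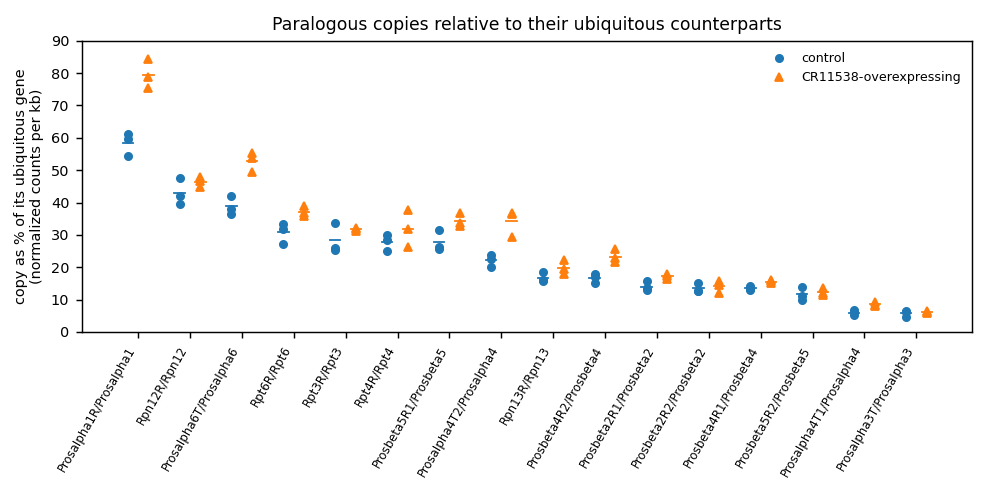
Level of each paralogous copy as a percent of its ubiquitous counterpart, from normalized counts per kb of exon, in each control library (circles) and each CR11538-overexpressing library (triangles), with group means (lines). All 16 means are higher in the CR11538-overexpressing flies, and Prosalpha6T goes from 38.8 to 52.9%.

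A share of the testis marker genes was higher as well. Of 37 testis markers chosen from general knowledge, 34 were tested, 33 had a log2 fold change above 0, 13 were higher, 21 did not pass and none was lower, with a median of 0.20, where 15.0% of all tested genes were higher. The count fell to 6 higher without control replicate 1 and to 6 without control replicate 2, fits in which 18.8% and 17.5% of all genes were called in place of 29.2%. Of the 13 calls, 5 held under all 12 alternatives. Their summed normalized counts were 75148 to 82826 in the control and 87849.5 to 96648 in the CR11538-overexpressing libraries. The strongest by adjusted p were betaTub85D, the tubulin of the sperm tail (log2 fold change 0.42, adjusted p = 0.00301), soti, a regulator of the ubiquitin ligase of spermatids (0.34, 0.00370), the sperm chromatin gene Mst77F (0.42, 0.00429) and wa-cup (0.35, 0.00574). Among the defining markers swif was at 0 in all libraries and Mst84Da at no more than 3 raw counts.

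The summed level of all copies per kb was 5409 to 6008 in the control and 6622 to 6735 in the CR11538-overexpressing libraries, which is 10.1 ± 0.684% and 11.8 ± 0.249% (SD, n = 3) of the ubiquitous genes. Set against the testis markers per kb, the copies made up 5.99, 6.24 and 6.24% in the control and 6.10, 6.95 and 6.51% in the CR11538-overexpressing libraries, which overlapped. Accessory gland markers had 4 higher and 1 lower of 11 tested, where 15.0% of all tested genes were higher and 14.2% lower. The sums of these markers were 38992 to 46972 and 50009.9 to 57667 normalized counts. The part of the testis share of a library, or of other male tissues, in the higher copies was not tested.

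Genes around the proteasome were described by lists chosen from general knowledge. Of all tested genes 29.2% were called, 15.0% as higher and 14.2% as lower, which is the share to set beside the counts in each list. Of 9 genes for proteasome assembly and regulation, 7 did not pass, 1 was higher and 1 was lower, with a median log2 fold change of 0.04. The higher gene was ntc, an F-box gene of the male germ line whose protein binds the proteasome regulator PI31 (log2 fold change 0.38, SE 0.06, adjusted p = 0.00156), and its call held in all 12 alternatives. The lower gene was REG, the fly homologue of a cap-independent activator of the core (-0.20, SE 0.07, adjusted p = 0.0489), which lost its call in 11 of 12 alternatives.

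The transcription factor gene cnc did not pass (log2 fold change -0.18, SE 0.07, adjusted p = 0.103). The core assembly chaperone Pomp, the small cap subunit Sem1 and PI31 had log2 fold changes of -0.01, 0.06 and 0.05 (adjusted p = 0.956, 0.627 and 0.581).

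Of 10 tested genes that deliver substrates to the proteasome or trim ubiquitin there, 2 were higher and 1 was lower. The median log2 fold change was 0.03, and 29.2% of all tested genes were called. Usp14 and Uch-L5, the deubiquitinases that dock on the cap, were higher by 0.25 (SE 0.07, adjusted p = 0.0227) and 0.21 (SE 0.07, adjusted p = 0.0376) on the log2 scale. Npl4, a partner of the segregase TER94, was lower (-0.26, SE 0.09, adjusted p = 0.0474). Each of these 3 lost its call in at least 5 of the 12 alternatives, with adjusted p up to 0.178 for Npl4. The shuttle protein genes Rad23, rngo and Ubqn did not pass, with 0.09, 0.01 and -0.19 (adjusted p = 0.338, 0.922 and 0.0590), and the groups did not overlap for Ubqn.

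Among 25 tested genes of ubiquitin and its conjugation, 3 were higher and 5 lower, where 29.2% of all tested genes were called. The median log2 fold change of the 25 was 0.04. Only 1 of these 8 calls held in all 12 alternatives, and leaving out a library gave 0 to 3 higher and 1 to 5 lower genes, with 0 and 1 without control replicate 2. Without control replicate 1, control replicate 3 and CR11538-overexpressing replicate 2 the counts were 0 and 2, 1 and 2, and 1 and 1. In the fits without control replicates 1, 2 and 3 and CR11538-overexpressing replicate 2, 18.8, 17.5, 22.3 and 20.8% of all genes were called. The polyubiquitin genes went in opposite directions. Ubi-p5E, on the X chromosome, fell by 0.48 on the log2 scale (SE 0.07, adjusted p = 0.00162), and Ubi-p63E, on 3L, rose by 0.24 (SE 0.07, adjusted p = 0.0200). The call of Ubi-p5E held in all 12 alternatives, and that of Ubi-p63E was lost when any 1 control library was left out, with adjusted p up to 0.0872. SkpA, an adaptor of cullin ligases (-0.25, adjusted p = 0.0144), and vih, a ubiquitin-conjugating enzyme of the cell cycle (0.28, adjusted p = 0.0172), also passed. Each lost its call without CR11538-overexpressing replicate 2, control replicate 1 or control replicate 2. Of the lower genes, Ubi-p5E, SkpA, Ubc7 and ben lie on the X chromosome and RpL40 on 2L. The higher genes Ubi-p63E, vih and Ubc6 lie on autosomes. All tested X-linked genes had a median log2 fold change of -0.05, and the part of the chromosome in these calls was not tested.

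Other large complexes gave the following values, set side by side with no test between complexes. Of all tested genes 15.0% were called higher and 14.2% lower, 29.2% in all. The share called was 18.8, 17.5 and 22.3% without control replicates 1, 2 and 3. It was 20.8 and 29.1% without CR11538-overexpressing replicates 2 and 3, and 26.8% with library size alone. The COP9 signalosome and eIF3 share the architecture of the lid. Of 9 COP9 genes, 1 was higher (CSN3, log2 fold change 0.28, adjusted p = 0.0169) and none was lower, with a median of -0.06, and the count was 0 without control replicate 1 or 2. Of 16 eIF3 genes, 11 were lower and 2 higher, with a median of -0.23. The lowest adjusted p values belonged to eIF3b (-0.39, 0.00207), eIF3d1 (-0.37, 0.00234), eIF3f1 (-0.33, 0.00316) and eIF3e (-0.29, 0.00518), and the higher ones were the paralogues eIF3d2 (0.33, 0.00900) and eIF3f2 (0.30, 0.0326). Of 7 CCT chaperonin genes, which fold actin and tubulin, 6 were higher, with a median of 0.30, led by CCT1 (0.42, 0.00820) and CCT3 (0.34, 0.00863). CCT counts fell to 2 higher without control replicate 1 or 2 or CR11538-overexpressing replicate 2, and to 3 without control replicate 3 or CR11538-overexpressing replicate 3, and were 2 with scaling by library size alone. The 11 lower eIF3 genes became 6 without control replicate 1 or 2 and 7 without CR11538-overexpressing replicate 2, and eIF3f2 lost its call in 7 of 12 alternatives. The calls of eIF3b, eIF3d1, eIF3f1, eIF3e, CCT1 and CCT3 held in all 12 alternatives. By comparison, 5 of the 32 ubiquitous proteasome genes were called, in both directions.

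**Figure D5:**
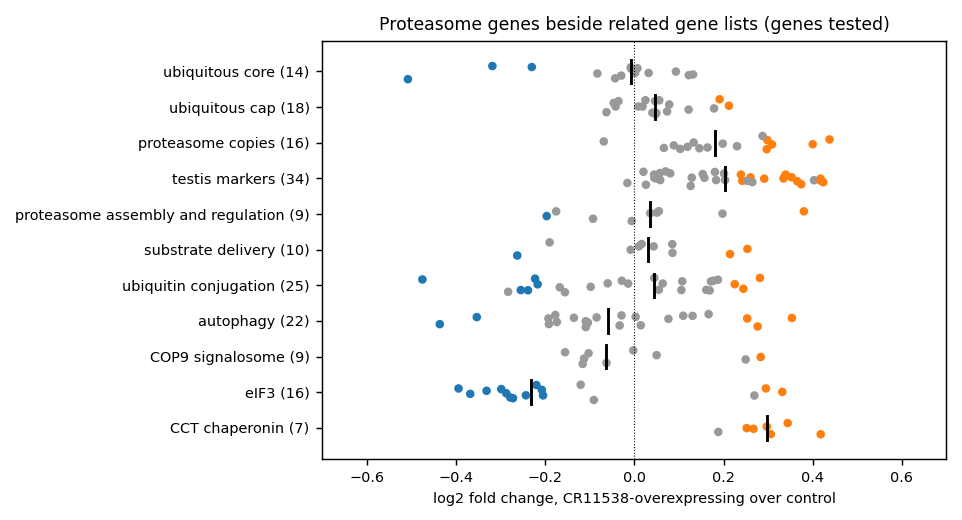
Log2 fold change of each tested gene (points) in the ubiquitous core, the ubiquitous cap, the proteasome copies and related gene lists, with list medians (vertical marks); orange points were higher and blue points lower at an adjusted p under 0.05. The copies and the testis markers centre on 0.18 and 0.20, the core and cap on -0.01 and 0.05, eIF3 on -0.23 and the CCT chaperonin on 0.30.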

How the data were processed

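Whole adult males were sequenced in 6 libraries, grouped by the strain label. The authors purified poly(A) RNA, aligned the paired reads with HISAT2 2.0.5 (dm6) and obtained counts per gene from featureCounts 1.5.0-p3, per the labels and the submitters' processing notes. The deposited values are raw read counts, neither normalized nor pooled. For strand setting, reads that match several genes and annotation release, the choice is not given in the sources used here. Of the 48 members, 16 share exon sequence with another gene, 15 of them on the opposite strand, over at most 182 bp.

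Symbols, positions and exon lengths are those of Ensembl release 115 on dm6, which matched 17252 of 17558 identifiers. Some listed genes (TER94, Cul5, CCT8, rye) were not analysed here. The counts were tested with edgeR 4.0.16 (R 4.3.3): 13159 genes passed filterByExpr at its defaults, normalization was by TMM, and genotype was the single term of the quasi-likelihood test, with 4 residual degrees of freedom. Standard errors (SE) were taken as the unshrunken log2 coefficient over the root of its F statistic, and the 95% intervals use the moderated degrees of freedom. Levels between genes were compared per kb of all annotated exons. Totals of 17040432 to 19652500 counts mean that a count of 0 allows a share of up to 1.76e-05% in the shallowest library (3 counts), which covers counting error only.

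Alternatives were DESeq2 1.42.0, edgeR with DESeq2's size factors or with plain library sizes, edgeR unfiltered or with a minimum of 10 counts per library, a block term for replicate number, 6 fits that each omit 1 library, and a fold over 2. The first 12 of these settings, without the fold threshold, are the 12 alternatives named beside single genes. Values in every library are given for at least the 3 members with the lowest adjusted p and the one with the largest change in each subunit group. Up to 4 genes of each other list are named by lowest adjusted p, with further genes named for their role or chromosome. The rule for the members reads only gene symbols, but this gene family and the lists were chosen with earlier results of these data known. Tables and figures were made with Python 3.11.15, pandas 2.3.3 and matplotlib 3.10.9.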

Additional observations from a re-analysis of the deposited data

How the results depend on the processing

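Of the 10 members called, 4 kept their call under all 12 alternatives (Prosalpha1, Prosalpha4, Prosalpha6T and Prosbeta4R2). Of the 38 not called, 36 were never called and 2 were in some alternatives (Rpn2 and Rpt6R). No called member changed direction. The count of higher members, 7, was 4 with library size alone, 4 without a filter and 3 to 8 with each library left out. For higher cap genes, 2 here, these settings gave 0, 0 and 0 to 3. Other settings added calls: 2 members with DESeq2's size factors in edgeR and 1 with a minimum of 10 counts per library. In both of these, 0 members lost a call. Leaving out each library gave 2 to 3 lower members in place of 3, the same 2 to 3 for lower core genes, 2 to 5 higher copies in place of 5, and a median log2 fold change of the copies between 0.15 and 0.25 (the highest without control replicate 3). With a fold over 2, 0 members were higher and 0 lower, as were 0 core, cap or copy genes. With the replicate number as a block, 6 members were higher and 3 lower, and 1 cap gene was higher because Rpn6 missed the threshold (adjusted p = 0.0533). Deviations from the group means correlated at 0.127, 0.0349 and 0.0709 for samples with the same number. For samples with different numbers the correlations ran from -0.117 to 0.0461. Whether same-numbered libraries share a batch or culture cannot be told from these values. The causes of these changes were not tested. With 3 libraries a group, 6 of the 10 calls were lost in at least 1 fit that left out a library. In the fits that each left out a library, 17.5 to 29.1% of all genes were called, in place of 29.2%.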

Other observations

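Autophagy is the other main route of protein breakdown. Of 22 autophagy genes tested, 3 were higher and 2 were lower, where 29.2% of all tested genes were called. The median log2 fold change of the 22 was -0.06. HDAC6, a deacetylase that carries ubiquitinated aggregates towards autophagy, was lower (-0.44, SE 0.08, adjusted p = 0.00340), as was the protease gene Atg4b (-0.35, SE 0.08, adjusted p = 0.00789). Atg8b, a homologue of the autophagosome marker Atg8a that is active in the testis, was higher (0.35, SE 0.06, adjusted p = 0.00277). These 3 calls held in all 12 alternatives. The 3 higher genes became 1 without control replicate 1 or 3, fits in which 18.8% and 22.3% of all genes were called.

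Of 16 genes that mark females, 4 passed the filter on low counts and the other 12 had at most 23 raw counts in any library. The yolk protein gene Yp3 was lower in the CR11538-overexpressing flies, at 262 against 1139 normalized counts (log2 fold change -2.12, SE 0.12, adjusted p = 2.15e-05). The other 3 did not pass and went in both directions. Cp15, Cp18 and Cp7Fb had log2 fold changes of 0.40, 0.19 and -0.30 (adjusted p = 0.207, 0.577 and 0.371), without overlap for Cp15.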
